A study of Homo sapiens with 4 samples.

Results

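The enzymes of serine synthesis and folate one-carbon metabolism, with a serine transporter, were followed through WTS of K562 cells carrying RUNX1::ERG or an empty vector (EV). These 10 genes were chosen by pathway membership with their levels in these libraries already known, so their change between the groups is described here and is not tested as evidence. They are 10 of the 25702 genes in the count files, and all 10 passed the filter on low counts that kept 15394 genes. K562 is a human myeloid leukemia cell line that carries BCR::ABL1 and makes fetal globin. The cells received, by nucleofection, the vector LeGO-iG2 with RUNX1::ERG or without an insert; the vector also makes green fluorescent protein. There was no further treatment, and each group had 2 replicates. RUNX1::ERG joins the DNA-binding domains of RUNX1 and ERG. Both groups are transient transfections of a single cell line. The labels do not say whether transfected cells were sorted before RNA extraction, and in bulk RNA a change in the share of cells and a change in RNA per cell cannot be told apart.

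Serine is made from a glycolytic intermediate by 3 enzymes in turn: PHGDH oxidizes 3-phosphoglycerate, PSAT1 adds the amino group and PSPH removes the phosphate. SHMT1 in the cytosol and SHMT2 in mitochondria then split serine into glycine and a carbon unit held by folate. In mitochondria MTHFD2, MTHFD1L and ALDH1L2 carry that unit on to formate or carbon dioxide, and MTHFD1 in the cytosol makes it available for purine and thymidylate synthesis. SLC1A4 is a neutral amino acid transporter that carries serine. The transcription factor ATF4, which is induced by amino acid shortage and other stress, is known to switch on several of these genes.

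Levels are given as CPM (counts relative to library size) scaled by the trimmed mean of M values, except where a length is named. EV replicate 1 held the highest level of 9 of the 10 genes, and EV replicate 2 lay below it and above both RUNX1::ERG libraries for 8 of them. PSAT1, PHGDH and ALDH1L2 differed most between the groups, and they also differed most between the EV replicates. For that reason the EV libraries are shown separately throughout.

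Promoters of 3 genes are shown: of the genes with a promoter sequence, PHGDH and PSAT1 had the largest changes, and MTHFD1L held the most matches to the letters searched. They are the 250 bases before the RefSeq start site on GRCh38.p14, and capitals mark the letters searched, on either strand.
PHGDH (chr1:119711684-119711933, + strand): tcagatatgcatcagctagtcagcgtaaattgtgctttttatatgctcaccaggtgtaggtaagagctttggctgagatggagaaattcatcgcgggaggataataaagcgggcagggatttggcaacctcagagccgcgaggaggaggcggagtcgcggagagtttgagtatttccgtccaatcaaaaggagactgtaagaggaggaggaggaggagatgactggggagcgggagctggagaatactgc
PSAT1 (chr9:78296875-78297124, + strand): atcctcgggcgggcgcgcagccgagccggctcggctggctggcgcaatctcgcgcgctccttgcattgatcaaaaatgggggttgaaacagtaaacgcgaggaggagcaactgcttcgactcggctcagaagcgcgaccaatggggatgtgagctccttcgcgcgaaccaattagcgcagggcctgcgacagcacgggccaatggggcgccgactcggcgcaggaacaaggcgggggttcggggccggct
MTHFD1L (chr6:150866236-150866485, + strand): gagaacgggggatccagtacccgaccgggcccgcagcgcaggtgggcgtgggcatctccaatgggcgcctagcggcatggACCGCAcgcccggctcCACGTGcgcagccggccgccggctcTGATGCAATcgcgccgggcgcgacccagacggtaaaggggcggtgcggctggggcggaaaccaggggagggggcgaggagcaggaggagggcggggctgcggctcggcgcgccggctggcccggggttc
RefSeq promoters of 300 bases, from 250 before to 50 after the start, were matched for 7 of the 10 genes; PSPH, SHMT2 and ALDH1L2 were not matched. The C/EBP-ATF response element TGATGNAAN, the letters bound by ATF4 with C/EBP proteins, was found in 1 of the 7, MTHFD1L, beginning 129 bases before the start (position -129). The same letters were in 3.61% of all 35116 promoters and in 3 of the 12 promoters of a list of stress genes, those of ASNS, ATF3 and CHAC1. The E-box CACGTG, which MYC with MAX and other factors bind, was in MTHFD1 (position -15) and MTHFD1L (position -154), against 7.26% of all promoters.

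For the DNA-binding domains that RUNX1::ERG retains, the ETS core CCGGAA and the RUNX core TGTGGT were in 0 of the 7, against 17.2% and 13.1% of all promoters. The other RUNX core, TGCGGT, was in 4 of the 7 against 7.29% of all promoters. In MTHFD1L it lay at position -170, and in SLC1A4, PSAT1 and PHGDH it lay after the start, at positions 3, 11 and 27. All 4 matches were on the minus strand, so they read as ACCGCA in the plus strand. None of the matches overlapped another, and a match of letters is not a binding site.

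The smallest library held 59695387 counts and the largest 82352144. A gene with 0 counts may hold up to 3 by counting error alone, which equals 0.0503 CPM at the lower depth and 0.0364 at the higher. ERG had 4 counts in each EV library and 80443 and 27218 in the RUNX1::ERG libraries, and its scaled CPM was 954 in RUNX1::ERG replicate 1 and 379 in replicate 2. RUNX1 counts rose by 3.22 (SE 0.32) on the log2 scale, with an adjusted p of 0.00036 by edgeR. Counts of both ERG and RUNX1 can include reads of the transfected fusion. MYC fell by 1.11 (SE 0.15), with an adjusted p of 0.002, and GAPDH had a log2 fold change of 0.00 (SE 0.12). Of the markers of K562, the fetal globin gene HBG2 had scaled CPM of 2503 and 2624 in EV and 3123 and 3064 in RUNX1::ERG, and the erythroid factor GATA1 had 270 and 263 in EV and 302 and 256 in RUNX1::ERG. TAL1, another erythroid factor, rose by 0.68 on the log2 scale (edgeR, adjusted p = 0.025), and the transferrin receptor TFRC had 709 and 1275 in EV and 570 and 764 in RUNX1::ERG, a log2 fold change of -0.57 that did not pass. The 6 markers of other cell types summed to 88.6 and 96.1 CPM in EV and 97.6 and 97.9 CPM in RUNX1::ERG, of which EPCAM made up most. MS4A1, a B cell marker, was at 0 in all 4 libraries and CD3E, a T cell marker, reached at most 0.474 CPM, while COL1A1 and LYZ rose by 2.42 and 1.12 on the log2 scale (edgeR, adjusted p = 0.0002 and 0.021); their part in the results was not tested.

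PHGDH, the enzyme that commits 3-phosphoglycerate to serine (chr1:120191034-120286841 on GRCh37, plus strand), had scaled CPM of 104 in EV replicate 1, 25.9 in EV replicate 2, 17.1 in RUNX1::ERG replicate 1 and 16.7 in replicate 2. The RUNX1::ERG libraries were close to each other and below both EV libraries, while EV replicate 1 stood 4.0 times above EV replicate 2. The group means were 64.8 ± 54.9 in EV and 16.9 ± 0.306 in RUNX1::ERG (SD, n = 2 each). The fitted log2 fold change of RUNX1::ERG over EV was -1.94 (SE 0.47), and it was -0.62 (SE 0.25) without EV replicate 1.

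PSAT1, the aminotransferase of the pathway (chr9:80912041-80945009, plus strand), had scaled CPM of 217 in EV replicate 1, 49.4 in EV replicate 2, 25.0 in RUNX1::ERG replicate 1 and 31.8 in replicate 2. EV replicate 1 stood apart here too, at 4.4 times EV replicate 2, and the groups did not overlap. The group means were 133 ± 119 in EV and 28.4 ± 4.84 in RUNX1::ERG (SD, n = 2 each). The log2 fold change was -2.23 (SE 0.50) with all libraries and -0.80 (SE 0.23) without EV replicate 1. EV replicate 2 alone was 1.98 and 1.55 times the RUNX1::ERG replicates, and PSAT1 was the 1 gene of the 10 that also passed the threshold without EV replicate 1.

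PSPH, the phosphatase of the last step (chr7:56078744-56119297, minus strand), had scaled CPM of 45.2 and 20.6 in EV and 13.9 and 19.5 in RUNX1::ERG. EV replicate 2 lay only 1.06 times above RUNX1::ERG replicate 2, so the groups barely separated. Its log2 fold change was -0.98 (SE 0.32), and -0.31 without EV replicate 1. Per kilobase of transcript the ratio of PSPH to PHGDH was lowest in EV replicate 1, at 0.412, against 0.753 in EV replicate 2 and 0.769 and 1.11 in RUNX1::ERG. The ratio of PSAT1 to PHGDH varied less, from 1.23 to 1.77 over the 4 libraries.

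**Figure D1:**
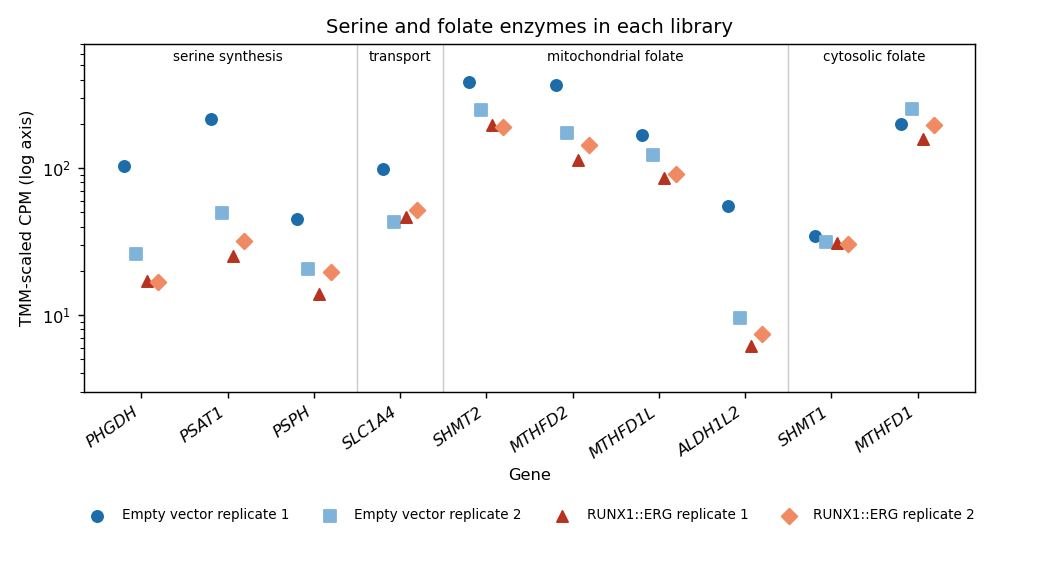
Scaled CPM (log axis) of the 10 genes, grouped by role, with 1 point for each library. EV replicate 1 is the highest point for 9 genes, and for MTHFD1 the highest is EV replicate 2; the RUNX1::ERG points of SLC1A4 lie between the EV points.

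The transporter SLC1A4 (chr2:65215611-65250999, plus strand) was the 1 gene whose groups overlapped. Its scaled CPM was 98.7 and 43.2 in EV and 46.6 and 51.9 in RUNX1::ERG. Both RUNX1::ERG libraries thus lay above EV replicate 2 and below EV replicate 1. The log2 fold change of -0.53 (SE 0.30) turned to 0.19 (SE 0.24) without EV replicate 1.

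SHMT2, the mitochondrial serine hydroxymethyltransferase (chr12:57623356-57628718, plus strand), had scaled CPM of 383 and 250 in EV and 195 and 190 in RUNX1::ERG. The groups did not overlap, and the RUNX1::ERG replicates differed far less than the EV replicates. The log2 fold change was -0.72 (SE 0.20), and -0.38 without EV replicate 1. Its cytosolic counterpart SHMT1 (chr17:18231174-18266877, minus strand) had 34.6 and 31.5 in EV and 31.0 and 30.6 in RUNX1::ERG. SHMT1 was nearly level over the 4 libraries, with a log2 fold change of -0.10 (SE 0.17).

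MTHFD2, the mitochondrial dehydrogenase and cyclohydrolase (chr2:74413299-74444692, plus strand), had scaled CPM of 368 and 173 in EV and 113 and 144 in RUNX1::ERG. EV replicate 1 stood 2.13 times above EV replicate 2, which in turn was 1.53 and 1.20 times the RUNX1::ERG replicates. Its log2 fold change was -1.07 (SE 0.29), and -0.43 without EV replicate 1.

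MTHFD1L, the mitochondrial enzyme that releases formate (chr6:151186815-151423023, plus strand), had scaled CPM of 168 and 123 in EV and 85 and 90.5 in RUNX1::ERG. Among the 3 genes that passed the test it had the smallest gap between the EV replicates, at 1.36 times. The log2 fold change was -0.73 (SE 0.18), and -0.50 without EV replicate 1.

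ALDH1L2, the mitochondrial enzyme that oxidizes formyl-tetrahydrofolate to carbon dioxide (chr12:105413562-105501421, minus strand), had scaled CPM of 55.6 and 9.49 in EV and 6.19 and 7.36 in RUNX1::ERG. Its EV replicates were the farthest apart of all 10 genes, at 5.86 times, and the SD of the EV group equalled its mean (32.6 ± 32.6, n = 2). The log2 fold change was -2.26 (SE 0.59) with all libraries and -0.49 without EV replicate 1. ALDH1L2 shares exon bases with NOPCHAP1 on the opposite strand. ALDH1L2 had 3350, 669, 522 and 529 counts in EV replicates 1 and 2 and RUNX1::ERG replicates 1 and 2, and NOPCHAP1 had 751, 1021, 792 and 645. NOPCHAP1 was not high in EV replicate 1, and reads of the shared bases cannot be told apart without a stated strand setting.

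MTHFD1, the cytosolic enzyme with 3 activities on folate (chr14:64854749-64930175, plus strand), had scaled CPM of 199 and 251 in EV and 159 and 195 in RUNX1::ERG. It was the only one of the 10 with its highest level in EV replicate 2, and EV replicate 1 exceeded RUNX1::ERG replicate 2 by little. For MTHFD1 the log2 fold change was -0.35 (SE 0.17), and -0.51 without EV replicate 1. MTHFD1, MTHFD2 and SHMT1 also share exon bases with ZBTB25, SLC4A5 and SMCR8 on the opposite strand, and their counts carry the same limit. SLC4A5 was, like MTHFD2, highest in EV replicate 1, with 904 and 575 counts in EV and 565 and 679 in RUNX1::ERG, far below those of MTHFD2. SMCR8 had 1915 and 2994 counts in EV and 3818 and 3639 in RUNX1::ERG, against 2085 and 2218 in EV and 2615 and 2197 in RUNX1::ERG for SHMT1, and was lowest in EV replicate 1. SHMT2 shares exon bases with genes on the opposite strand that were not analysed here.

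Of the 10 genes, 3 passed the threshold as lower in RUNX1::ERG (PSAT1, PHGDH and MTHFD1L) and 0 as higher, where 1.15% and 3.64% of all 15394 genes tested did so. Both RUNX1::ERG libraries were below both EV libraries for 9 of the 10, and for 22.1% of all genes tested. These counts use the contrast the genes were known for, and nothing is read from them. The set of genes past the threshold also changed with the tool: by DESeq2 it was PSPH, SHMT2, MTHFD2 and MTHFD1L, without PSAT1 and PHGDH (adjusted p = 0.14 and 0.19, log2 fold changes -2.24 and -1.94), and by limma voom it held 0 genes. The median log2 fold change of the 10 was -0.85, against -0.00 over all genes tested. Without EV replicate 1 the median was -0.46, 9 of the 10 had a fitted value below 0, and 1 gene passed the threshold, beside 1.91% of the 15968 genes tested there. That fit has a single EV library, which is assumed to vary like the RUNX1::ERG libraries.

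**Figure D2:**
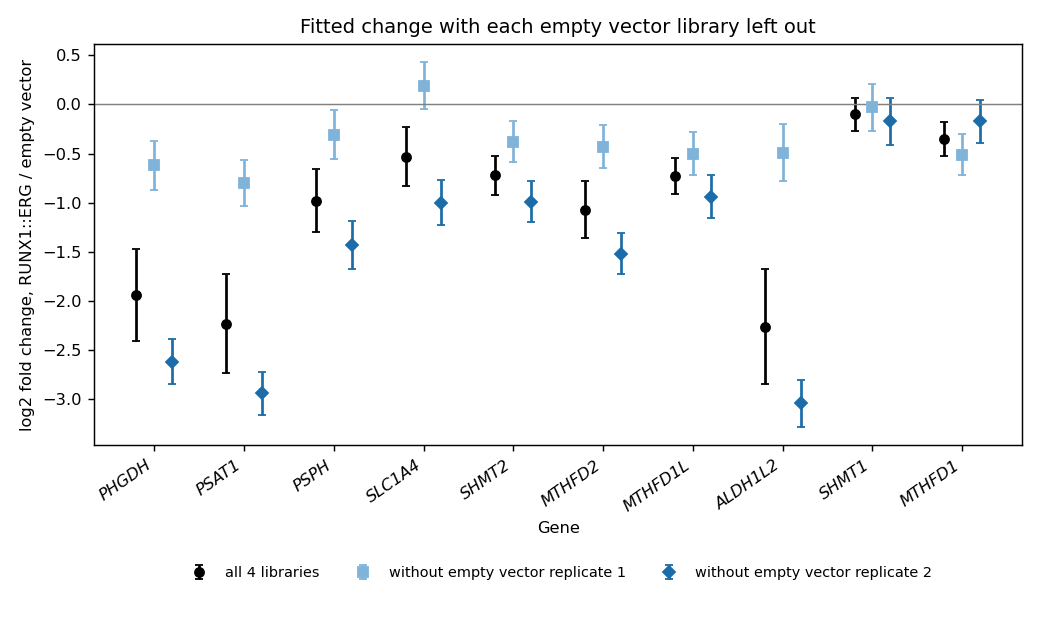
Fitted log2 fold change of RUNX1::ERG over EV for each gene (points, bars are SE), with all 4 libraries, without EV replicate 1 and without EV replicate 2. Without EV replicate 1 the values lie between -0.80 and 0.19, and with all libraries between -2.26 and -0.10.

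The 4 mitochondrial folate enzymes had log2 fold changes from -2.26 to -0.72, and the 2 cytosolic ones -0.35 and -0.10. Without EV replicate 1 the ranges were -0.50 to -0.38 and -0.51 to -0.03, which overlap. Within a library, the ratio of SHMT2 to SHMT1 per kilobase of transcript was 12.9 and 9.30 in EV and 7.35 and 7.30 in RUNX1::ERG. This ratio separated the groups. The ratio of MTHFD2 to MTHFD1 was 1.33 in EV replicate 1, and 0.493, 0.510 and 0.529 in EV replicate 2 and the RUNX1::ERG libraries. That of MTHFD1L to MTHFD1 was likewise set apart in EV replicate 1 alone, at 0.773 against 0.449, 0.489 and 0.425. MTHFD2 exceeded its isozyme MTHFD2L by 16.1 and 8.52 times in EV and by 5.63 and 7.56 times in RUNX1::ERG. The ratio of MTHFD2 to MTHFD2L thus separated the groups as well, and neither separation was tested. For levels of single genes, both RUNX1::ERG libraries lay below both EV libraries in 3403 of 15394 and above both in 3858.

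Ordered by mean CPM per kilobase of the canonical transcript, SHMT2 was highest (118), followed by MTHFD1 (63.7), MTHFD2 (45.3), PSAT1 (36.6), MTHFD1L (33.8), PHGDH (21.9), SLC1A4 (13.2), PSPH (12.6), SHMT1 (12.6) and ALDH1L2 (2.65). SHMT2 was above and ALDH1L2 below all the others in every library. Between these ends the neighbours overlapped in their ranges over the libraries. Among the genes between these ends, PSAT1 spanned the widest range, from 98.5 CPM per kilobase in EV replicate 1 to 22.4 in EV replicate 2 and 11.3 and 14.4 in RUNX1::ERG.

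ALDH1L2, PSAT1, PHGDH, SLC1A4, PSPH and MTHFD2, 6 of the 10 genes, were at least 2-fold higher in EV replicate 1 than in EV replicate 2, as were 7.61% of all genes tested. The median ratio of the EV replicates was 2.16 over the 10 genes and 1.02 over all genes. In contrast, the RUNX1::ERG replicates differed by ratios of 0.713 to 1.03.

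A list of 12 stress response genes linked to ATF4 also stood out in EV replicate 1, which held the highest level of all 12. Of the 11 that were tested, 10 were at least 2-fold higher in EV replicate 1 than in EV replicate 2, against 7.61% of all genes tested. The summed level of the list was 2967 CPM in EV replicate 1, 795 in EV replicate 2, and 821 and 695 in RUNX1::ERG. ATF4 had scaled CPM of 443 and 252 in EV and 258 and 234 in RUNX1::ERG. ASNS, the asparagine synthetase, had 400 and 97.2 in EV and 69.0 and 76.4 in RUNX1::ERG, and TRIB3, a pseudokinase induced by stress, had 327 and 84.3 in EV and 88.3 and 75.9 in RUNX1::ERG. For ATF4 and TRIB3, EV replicate 2 lay between the RUNX1::ERG libraries, and for ASNS it lay above both. VLDLR did not pass the filter on low counts.

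Of the 11 stress genes tested, 0 passed the threshold by edgeR, where 1.15% of all genes tested passed as lower and 3.64% as higher. By DESeq2 or limma voom 0 passed as well. With a block for replicate number in edgeR, ASNS, CHAC1, CEBPB and DDIT4 passed as lower, as did 651 of all 15394 genes. The calls in the stress genes thus depend on the fit. By edgeR without the block 10 of the 11 had an unadjusted p under 0.05, as did 18% of all genes tested. The median log2 fold change of the stress genes was -1.24, and -1.93 without EV replicate 2. Without EV replicate 1 the median of the stress genes was -0.04, within a range of -0.42 (ASNS and CHAC1) to 0.24, and that of the 10 serine and folate genes was -0.46, within -0.80 to 0.19, so the ranges overlap. EV replicate 2 lay above both RUNX1::ERG libraries for 9 of the 10 serine and folate genes and for 3 of the 12 stress genes (ASNS, CEBPG and CHAC1), as for 36% of all genes tested. Both lists are compared through the same libraries, the difference between them was not tested, and the part of the stress genes in the lower levels of the serine and folate genes was not tested.

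**Figure D3:**
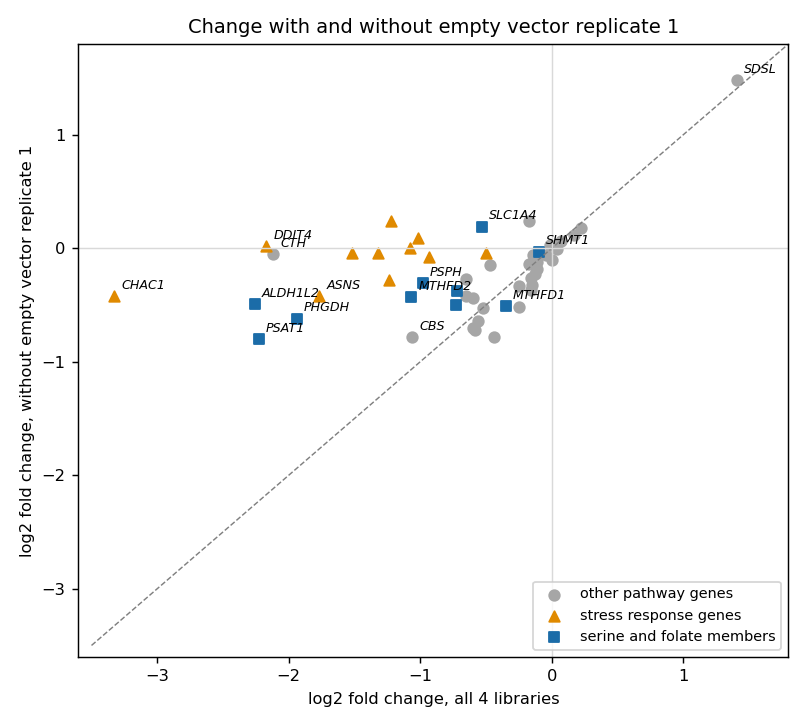
Log2 fold change of RUNX1::ERG over EV without EV replicate 1 (y) against that with all 4 libraries (x) for 10 serine and folate genes, 11 stress genes and 32 other pathway genes with a mean of at least 10 CPM; the dashed line marks equal values. On the y axis the stress genes have a median of -0.04, with ASNS and CHAC1 lowest at -0.42, and the serine and folate genes have a median of -0.46.

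Beside the 10, a further 47 genes of serine, folate, glycine and methionine metabolism were looked at, and 43 were tested. Of these, 3 were lower and 4 higher in RUNX1::ERG by edgeR, against 1.15% and 3.64% of all genes tested, and 36 did not pass the threshold. Their median log2 fold change was -0.13, their median ratio of the EV replicates was 0.998, and 4 were at least 2-fold higher in EV replicate 1 than in replicate 2, where 7.61% of all genes were.

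Among 14 tested genes of serine transport and use, 1 fell, 2 rose and 11 did not pass, where 1.15% and 3.64% of all genes tested fell and rose. By edgeR 6 of the 14 had an unadjusted p under 0.05, as did 18% of all genes tested. SLC1A5, a transporter of glutamine and other neutral amino acids, fell by 0.60 (SE 0.15, edgeR adjusted p = 0.049), with scaled CPM of 759 and 613 in EV and 457 and 447 in RUNX1::ERG. It passed by DESeq2 (adjusted p = 0.015) but not by limma voom (adjusted p = 0.051), and its log2 fold change was -0.44 without EV replicate 1. SFXN3, a mitochondrial serine transporter, rose by 2.05 (SE 0.33, edgeR adjusted p = 0.0058), from 1.96 and 1.33 CPM to 7.95 and 5.65. SDSL, which resembles serine dehydratase, rose by 1.41 (SE 0.21, edgeR adjusted p = 0.0032), from 7.75 and 7.09 CPM to 20 and 19.6. In these 3 genes the groups did not overlap, and the EV replicates were much closer to each other than in PSAT1 or PHGDH. Over all 15394 genes tested, both RUNX1::ERG libraries lay below both EV libraries for 3403 and above both for 3858. The 3 genes were named for passing the test on these libraries, so nothing is read from their separation. The transporters SLC38A1 and SLC38A2 each had a log2 fold change of -0.65, the seryl-tRNA synthetase SARS1 -0.47 and the main mitochondrial serine transporter SFXN1 -0.11, and these 4 did not pass by edgeR; SLC38A1 passed by DESeq2 (adjusted p = 0.021).

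Among 17 tested genes of the folate cycle and folate transport, 0 fell, 2 rose and 15 did not pass, against 1.15% lower and 3.64% higher among all genes. By edgeR 4 of the 17 had an unadjusted p under 0.05, a share near the 18% of all genes tested. Both genes of the 17 that rose were folate receptors at low levels. FOLR1 had 28 and 30 counts in EV and 367 and 294 in RUNX1::ERG, a log2 fold change of 3.24 (SE 0.35, edgeR adjusted p = 0.00054). FOLR2 had 0 and 2 counts in EV and 182 and 133 in RUNX1::ERG (edgeR adjusted p = 0.00049), a ratio of 132 scaled for depth with a 95% Clopper-Pearson interval of 36.2 to 1093 for counting error only. The purine synthesis enzymes GART and ATIC, which use formyl-tetrahydrofolate, had log2 fold changes of -0.52 and -0.56; they did not pass by edgeR or limma voom, and passed by DESeq2 (adjusted p = 0.049 and 0.033).

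Among 9 tested genes of the methionine cycle and transsulfuration, 2 fell, 0 rose and 7 did not pass. Of all genes tested, 1.15% fell and 3.64% rose. By edgeR 3 of the 9 had an unadjusted p under 0.05, as did 18% of all genes tested. CBS, which joins serine to homocysteine, fell by 1.06 (SE 0.19, edgeR adjusted p = 0.01), with scaled CPM of 574 and 397 in EV and 247 and 218 in RUNX1::ERG. AHCY, which makes homocysteine, fell by 0.60 (SE 0.15) and passed the threshold narrowly, with scaled CPM of 315 and 362 in EV and 212 and 233 in RUNX1::ERG. Unlike most of the 10 genes, AHCY was higher in EV replicate 2 than in EV replicate 1. The log2 fold changes of MAT2A, MTR, MTRR and MAT2B lay between -0.25 and 0.07. CTH, the enzyme after CBS, was picked out after its values were seen: it had 77.9 CPM in EV replicate 1 and 10.5, 10.1 and 10.2 in the other libraries, and its log2 fold change of -2.12 (SE 0.64) became -0.05 without EV replicate 1. Of the 3 tested genes of glycine cleavage (AMT, GCSH and DLD), 0 passed by edgeR or limma voom in either direction. By edgeR 1 of the 3 had an unadjusted p under 0.05, as did 18% of all genes tested. GCSH (log2 fold change -0.58 by edgeR) passed as lower by DESeq2, as did 403 of the 16041 genes tested there. The edgeR log2 fold changes of DLD and AMT were -0.01 and 0.57. GLDC did not pass the filter on low counts.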

How the data were processed

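WTS libraries from poly(A)-enriched RNA of K562 cells were analysed, 2 for EV and 2 for RUNX1::ERG, grouped by the sample labels. The deposited values are raw read counts for each NCBI gene number, not normalized by the authors, with 1 file a library. The submitters' processing notes name HISAT2 2.2.1, featureCounts 2.0.1 and hg19. The annotation and the handling of strand, pairs and multi-mapped reads are not given in the sources used here. Of counts from 1 to 10, 66.7% to 68.9% were even, so both mates of a pair may have been counted. Symbols of a RefSeq table (GRCh38.p14) matched 92.2% of the 25702 genes. Positions and transcript lengths are those of GENCODE v44 on GRCh37, and a level per kilobase depends on the transcript chosen.

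Counts were fitted in R 4.3.3 with edgeR 4.0.16 (TMM scaling, filter on low counts, quasi-likelihood test, Benjamini-Hochberg adjustment over 15394 genes, threshold 0.05); the SE is the log2 fold change divided by the square root of F. The study's methods used DESeq2, which was tried here (1.42.0) with limma 3.58.1 voom, other scalings and filters, halved counts, a replicate block and leaving out each library. The fit was also run on simulated counts with the same dispersion for every gene and no library set apart. That run therefore does not cover the gap between the EV replicates. The p-values measure the spread between these libraries, which may be technical in part; an exact permutation test of 2 against 2 cannot go below 0.333. The replicates of a group differed by more than sampling noise (chi-square per degree of freedom 94.7 in EV and 72.3 in RUNX1::ERG).

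The 10 genes and all lists were chosen with earlier results of these data known. The genes named were the 10, ERG, RUNX1, MYC and GAPDH, the pathway genes past the threshold with up to 4 more of the highest mean CPM in each list, the stress and marker genes, and the 5 genes nearest to PSAT1 and to PHGDH by pattern. Symbols made of a member's name with P or -AS and a digit were looked for as copies or antisense genes, and 0 were found. Some genes of the lists are not reported here by name.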

Additional observations from a re-analysis of the deposited data

How the results depend on the processing

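The 3 serine and folate genes past the threshold as lower became 5 with DESeq2's scaling method, 0 with library totals, 7 with no filter on low counts and 0 with limma voom; DESeq2 called 4, which share only MTHFD1L with the 3; leaving out 1 library gave 0 to 8 (1 without EV replicate 1 and 8 without the other, 0 without RUNX1::ERG replicate 1 and 6 without its replicate 2). The 3 other pathway genes that were lower became 1 with library totals, 9 with no filter, 1 with a minimum of 10 counts and 7 with DESeq2, and 1 to 6 on leaving out 1 library. With the replicate block the counts were 5 and 7; the labels do not say what a number shares, and same-numbered libraries had a correlation of deviations of 0.271, so the block is given as a hint only. The log2 fold change of SLC1A4 ranged from -1.0 without EV replicate 2 to 0.19, a reversal, without EV replicate 1. No gene of the 10 was called higher under any alternative run. Of 120 values of the 10 genes under alternatives, 86 kept their direction and side of the threshold, 13 fell short of it, 20 newly passed it and 1 reversed. With 2 libraries in a group and EV replicate 1 apart from EV replicate 2, the calls depend on the fit; the cause was not tested.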

Other observations

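Among 9000 genes outside the lists with a mean of at least 10 CPM, SLC6A9, a glycine transporter, had the pattern over the 4 libraries nearest to that of both PHGDH and PSAT1. The Euclidean distance of centred log2(scaled CPM + 0.5) values was 0.0871 from PHGDH and 0.359 from PSAT1. SLC6A9 had scaled CPM of 85.3 and 22.5 in EV and 13.6 in each RUNX1::ERG library. AKNA, TNFRSF10B, a death receptor for TRAIL, and the secreted glycoprotein STC2 were among the 5 nearest to both genes. STC2 had 60.8 and 16.1 CPM in EV and 7.35 and 7.0 in RUNX1::ERG. SLC7A11, the cystine and glutamate exchanger, was among the 5 nearest to PSAT1, with 104 and 17.0 CPM in EV and 13.8 and 18.3 in RUNX1::ERG, and MYCL, a relative of MYC, was among the 5 nearest to PHGDH, with 22.8 and 8.44 CPM in EV and 4.53 and 5.05 in RUNX1::ERG. EV replicate 1 was the highest library in each of these genes. This follows from choosing them by nearness to PSAT1 and PHGDH, so nothing is read from it. The likeness rests on 4 libraries and was not tested.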
